A study of Saccharomyces cerevisiae S288C with 72 samples.

Results

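The ATG genes of budding yeast, Saccharomyces cerevisiae, encode the machinery of autophagy. Every entry of the deposited expression table whose name is ATG followed only by digits was taken, which gave 31 genes of 5803 entries. Strain cDBY0085, called the NADH dehydrogenase mutant here, lacks NDE1, NDE2 and NDI1, the genes for the external and internal NADH dehydrogenases of mitochondria. Strain cDBY0045, the cox4Δ mutant, lacks COX4, the gene for a subunit of cytochrome c oxidase. Wild type was cDBY001, an S288C strain. All 3 grew in defined liquid medium with ammonium and 2% glucose and were sampled for total RNA sequencing at the same 24 times from 0 to 58 h, which gave 72 libraries with 1 library per strain and time. Each genotype is represented by 1 strain, and no replicate culture is stated. The deleted genes were close to absent in the strains that lack them.

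Autophagy wraps cytoplasm in a double membrane and delivers it to the vacuole, the degradative compartment of yeast. The Atg1 kinase complex starts the process, vesicles with Atg9 bring membrane, a phosphatidylinositol 3-kinase complex marks the site, and a pair of ubiquitin-like conjugation systems attaches Atg8 to the growing membrane. Receptors tie particular cargo, such as mitochondria or peroxisomes, to Atg8 and Atg11, and vacuolar enzymes then break down what arrives. In yeast the process runs at a low rate during growth on glucose and is induced by starvation and in the stationary phase.

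Levels are in TPM, a share of all transcripts that is corrected for gene length, rescaled to a common total without the 23 mitochondrial and plasmid entries. TPM keeps no record of read number, so depth is unknown. In bulk RNA, fewer cells that express a gene and less of its RNA per cell cannot be told apart. The 24 times fell into 3 windows, early with the 7 times up to 8 h, middle with the 8 times from 9 h up to 16 h and late with the 9 times from 18 h on. Strains were matched by the hour and not by stage of growth, so genotype and stage cannot be told apart in comparisons between strains. Late in the mutants the 10 most abundant genes took more of the RNA, at 24.1 to 31.5% in the NADH dehydrogenase mutant and 24.5 to 35.7% in cox4Δ, against 14.5 to 19.3% in wild type. With that, the log2 difference from wild type of the median gene was -0.65 in the NADH dehydrogenase mutant and -0.61 in cox4Δ. Differences are therefore also given after median-of-ratios scaling, which sets the typical gene level between libraries. The sample labels begin with a code whose letter differs between strains and changes between 13 and 14 h. What the code stands for is not stated. An effect tied to it cannot be told apart from strain or time.

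The 31 genes spanned a wide range of abundance. ATG33 (YLR356W, chromosome XII 840321 to 840914), which encodes a mitochondrial outer membrane protein that promotes mitophagy, averaged 527.7 TPM over the 72 libraries. ATG8 (YBL078C, chromosome II 80378 to 80731), the ubiquitin-like protein of the autophagosome, averaged 265 TPM. The lowest mean was 4.59 TPM, for ATG2, whose protein transfers lipid to the growing membrane. Next came ATG9 (YDL149W, chromosome IV 184925 to 187918), the lipid scramblase of the seed vesicles, at 6.63 TPM, and ATG23 at 7.345 TPM. ATG1 (YGL180W, chromosome VII 160065 to 162758), the kinase, averaged 7.77 TPM. All 31 passed the filter of a mean of at least 1 TPM, and a single one of their values, ATG12 in cox4Δ at 11 h, stood at the floor of 0.1 TPM of the deposited table.

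**Figure D1:**
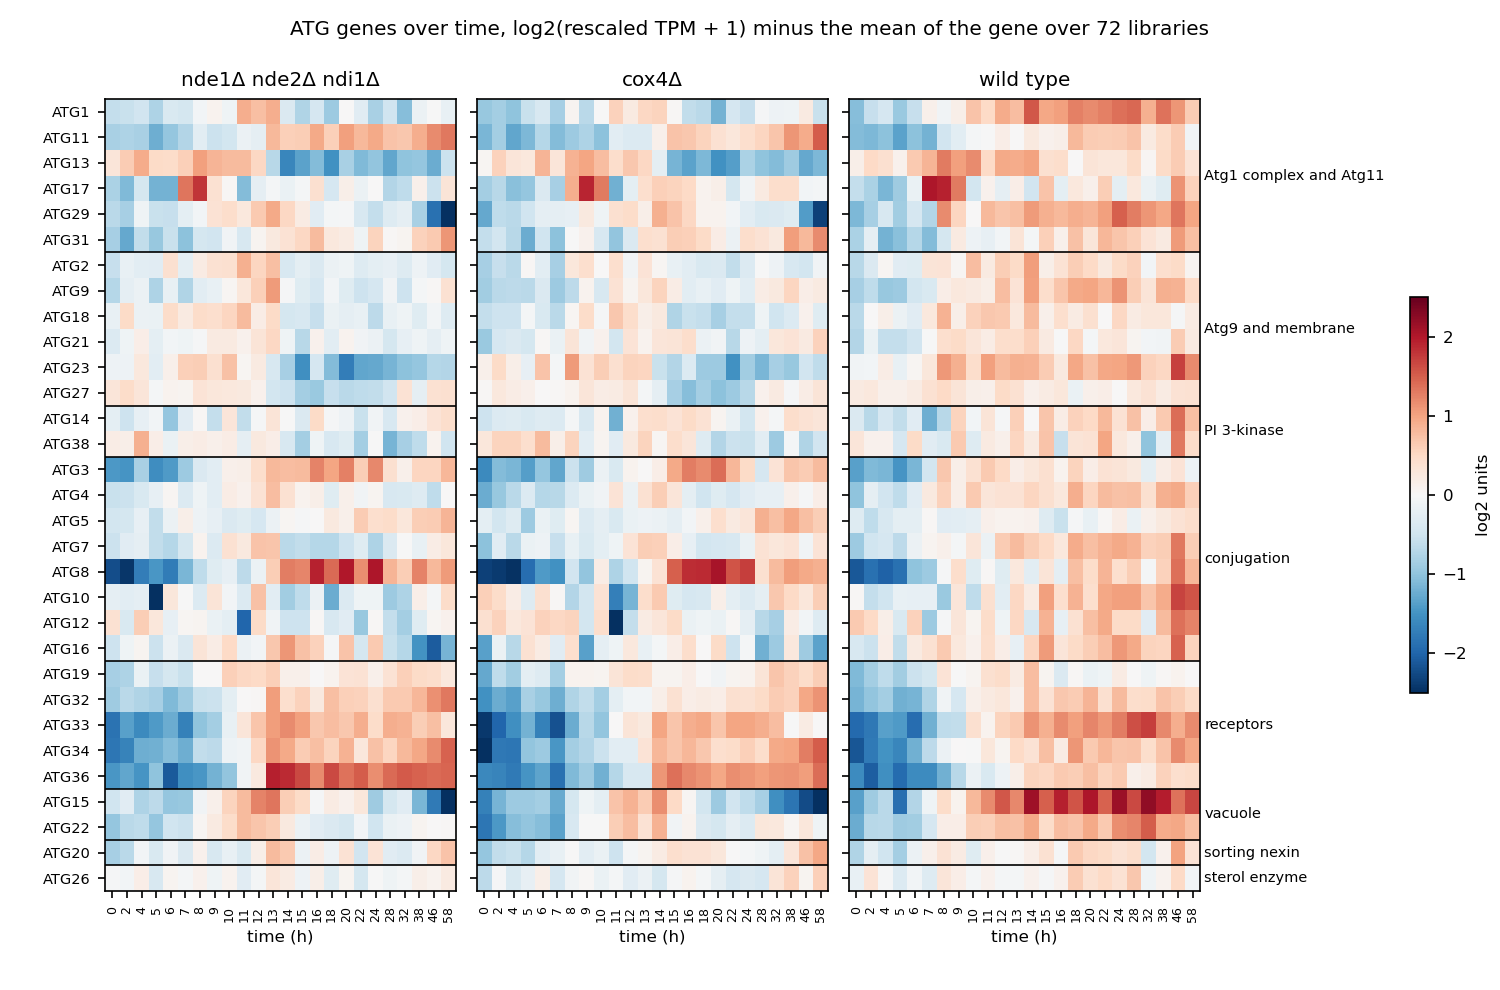
Level of each of the 31 ATG genes (rows, ordered by role) at each of the 24 sampling times in h (columns) in the NADH dehydrogenase mutant, cox4Δ and wild type, as log2(rescaled TPM + 1) minus the mean of the gene over 72 libraries; each cell is 1 library. In wild type ATG1, ATG15 and ATG29 stay above their means in the late window, where they are lower in both mutants, while ATG32, ATG34 and ATG36 are above their means at every late time of every strain.

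In wild type the ATG genes rose as the culture aged. Between the late and the early window 16 of 31 were called higher and 0 lower, where called means a limma adjusted p under 0.05 over all 5721 genes tested and a change of at least 2-fold. Of all genes, 18.4% were called higher and 14.7% lower. At an unadjusted p under 0.05, 25 of the 31 were higher and 0 lower, while 67.9% of all genes reached that level in one direction or the other. The median log2 difference of the ATG genes was 1.06, against 0.05 over all genes, and the 16 genes called after median-of-ratios scaling were the same (17.5% of all genes). By role, 4 of 6 genes of the Atg1 complex and its adaptor, 1 of 6 for Atg9 and membrane delivery, 1 of 2 of the PI 3-kinase, 4 of 8 of conjugation, 4 of 5 receptors and 2 of 2 vacuolar genes rose. The receptor group here includes ATG33, for the mitochondrial outer membrane protein that promotes mitophagy. Neither ATG20 (0.67), for a sorting nexin, nor ATG26 (0.37), for a sterol glucosyltransferase, was called.

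ATG33 had the highest late values, 774, 941 and 1364 TPM (lowest, median and highest of 9 late times), against 105, 153 and 263 TPM at the 7 early times. The windows did not overlap, and the log2 difference was 2.72 ± 0.25 (SE; adjusted p = 3.4e-15). ATG15 (YCR068W, chromosome III 237214 to 238776) encodes the vacuolar lipase that opens autophagic bodies. Its late values were 77.8, 97.1 and 142 TPM, against 7.30, 17.5 and 41.3 TPM early, a log2 difference of 2.53 ± 0.32 (adjusted p = 3.9e-10). The windows were again separate, and 13 of the 31 genes, against 15.7% of all genes, had every late value above every early one. None of the 31, against 17.3% of all genes, had every late value below.

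ATG36 (YJL185C, chromosome X 82095 to 82976), the receptor for peroxisomes, had 58.0, 78.2 and 89.9 TPM late, against 12.0, 17.2 and 22.3 TPM early (log2 difference 2.12 ± 0.29, adjusted p = 5.7e-09). ATG34 (YOL083W, chromosome XV 165714 to 166952), the receptor for alpha-mannosidase, had 52.7, 64.0 and 88.9 TPM late, against 8.03, 13.0 and 34.8 TPM early (2.10 ± 0.24, adjusted p = 1.8e-11). Both receptors were separate between the windows. ATG8 lay at 183, 289 and 495 TPM late, against 42.9, 51 and 184 TPM early, and the windows met only through its 8 h value (2.05 ± 0.33, adjusted p = 2.5e-07).

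ATG1 had 10.9, 17.4 and 19.7 TPM late, against 2.67, 4.12 and 7.37 TPM early (log2 difference 1.67 ± 0.21, adjusted p = 4.6e-10). ATG11 (YPR049C, chromosome XVI 661137 to 664673), the scaffold that links receptors to the kinase, changed by 1.55 ± 0.19 (adjusted p = 1.7e-10), ATG32 (YIL146C, chromosome IX 74184 to 75773), the mitophagy receptor, by 1.49 ± 0.17 (adjusted p = 2.2e-11), and ATG9 by 1.35 ± 0.17 (adjusted p = 1.5e-10). Much of this was in place by the middle window, when 12 of 31 genes were called higher than early (12.3% of all genes) and 0 lower (11% of all genes). These 12 were among the 16 of the late window. The largest middle minus early differences were 2.04 ± 0.33 for ATG15, 2.00 ± 0.25 for ATG33, 1.70 ± 0.30 for ATG36, 1.56 ± 0.25 for ATG34 and 1.40 ± 0.34 for ATG8. ATG1 stood at 1.34, ATG32 at 1.15, ATG11 at 1.08 and ATG9 at 1.06, all called.

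Promoter sequence is shown for the 4 genes with the largest called differences here or between strains late (ATG15, ATG33, ATG34 and ATG36) and for ATG8, which was added after its values were seen because its time course parts from that of ATG1. Each line is the 250 bases from 300 to 51 before the start codon in RefSeq assembly R64 (sacCer3), 5′ to 3′ on the strand of the gene. Capitals mark matches on either strand to AGGGG (stress response element), GGCGGC (core of the Ume6 site), GATAAG (bound by Gln3 and Gat1) and TGACTC (Gcn4). The windows are chrIII:236914-237163 on the plus strand for ATG15, chrXV:165414-165663 plus for ATG34, chrII:80782-81031 minus for ATG8, chrXII:840021-840270 plus for ATG33 and chrX:83027-83276 minus for ATG36.
ATG15: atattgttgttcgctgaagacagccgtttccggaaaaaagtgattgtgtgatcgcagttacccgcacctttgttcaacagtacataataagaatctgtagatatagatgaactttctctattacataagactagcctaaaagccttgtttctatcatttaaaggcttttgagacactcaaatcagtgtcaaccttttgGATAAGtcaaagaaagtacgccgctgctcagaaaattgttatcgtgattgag
ATG34: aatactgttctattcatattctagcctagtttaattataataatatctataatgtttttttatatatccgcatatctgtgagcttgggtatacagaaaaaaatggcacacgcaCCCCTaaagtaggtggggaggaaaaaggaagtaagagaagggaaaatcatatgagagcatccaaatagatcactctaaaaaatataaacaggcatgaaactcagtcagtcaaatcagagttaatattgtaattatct
ATG8: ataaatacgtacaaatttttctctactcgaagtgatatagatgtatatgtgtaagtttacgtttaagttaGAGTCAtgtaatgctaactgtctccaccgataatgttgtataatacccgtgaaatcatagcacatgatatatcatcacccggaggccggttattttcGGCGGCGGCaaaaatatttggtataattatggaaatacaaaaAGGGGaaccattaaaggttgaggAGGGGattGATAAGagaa
ATG33: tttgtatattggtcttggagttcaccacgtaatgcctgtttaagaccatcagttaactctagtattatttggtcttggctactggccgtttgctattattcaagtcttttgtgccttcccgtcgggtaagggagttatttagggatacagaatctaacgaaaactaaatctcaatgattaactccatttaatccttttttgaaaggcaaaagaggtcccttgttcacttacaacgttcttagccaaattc
ATG36: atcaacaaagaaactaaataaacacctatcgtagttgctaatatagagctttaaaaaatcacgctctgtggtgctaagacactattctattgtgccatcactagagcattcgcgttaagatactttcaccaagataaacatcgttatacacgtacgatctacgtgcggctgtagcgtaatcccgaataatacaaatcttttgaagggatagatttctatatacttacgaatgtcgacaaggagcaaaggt

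ATG15 held 1 GATAAG, and ATG34 held 1 AGGGG, read here as CCCCT. ATG8 was the single ATG gene with matches to all 4 motifs, and the only one of 31 with GGCGGC, in 2 overlapping copies. ATG33 and ATG36 held none of these letters in this window. Over all 31 windows AGGGG was present in 9 (29%), against 19.2% of 6001 promoters, GATAAG in 8 (25.8%), against 12%, TGACTC in 4 (12.9%), against 6.83%, and GGCGGC in 1 (3.23%), against 4.82%. Some windows overlap a neighbouring gene. Among them are those of ATG4, ATG21 and ATG29, which held TGACTC, and of ATG14 and ATG29, which held GATAAG. The printed windows do not overlap a neighbouring gene. A match is a string of letters and not a measured site.

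Late in the 2 mutants about as large a share of the ATG genes as of all genes was lower than in wild type. ATG1 and ATG13 of the kinase complex, ATG23, ATG29 and both vacuolar genes were lower than in wild type in both mutants, and ATG8, ATG36, ATG3 and ATG5 had positive differences under 2-fold. Of 31 genes, 10 were called lower and 0 higher in the NADH dehydrogenase mutant than in wild type, where 29.4% of all genes were lower and 2.71% higher. In cox4Δ, 7 were lower and 0 higher, against 26.3% and 2.46% of all genes. At an unadjusted p under 0.05 by limma, 6 were higher and 21 lower in the NADH dehydrogenase mutant, where 79.3% of all genes reached that level in either direction, and 5 were higher and 19 lower in cox4Δ, against 77.5%. The 2 comparisons share their wild-type libraries. The counts of lower genes are close to those backgrounds, and the median ATG difference was -0.56 in the NADH dehydrogenase mutant and -0.64 in cox4Δ, near the median gene.

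After median-of-ratios scaling the split changed to 6 higher and 3 lower in the NADH dehydrogenase mutant (9.13% and 6.72% of all genes) and to 4 higher and 3 lower in cox4Δ (8.01% and 6.77%). ATG15, ATG23 and ATG29 were lower in both mutants with either scaling. ATG3, ATG5, ATG8 and ATG36 were called higher in both mutants with the second scaling only, as were ATG11 and ATG19 in the NADH dehydrogenase mutant. ATG1, ATG13, ATG16 and ATG22 in both mutants, and ATG7, ATG10 and ATG12 in the NADH dehydrogenase mutant, were called lower with the first scaling only, and kept a negative difference with the second.

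**Figure D2:**
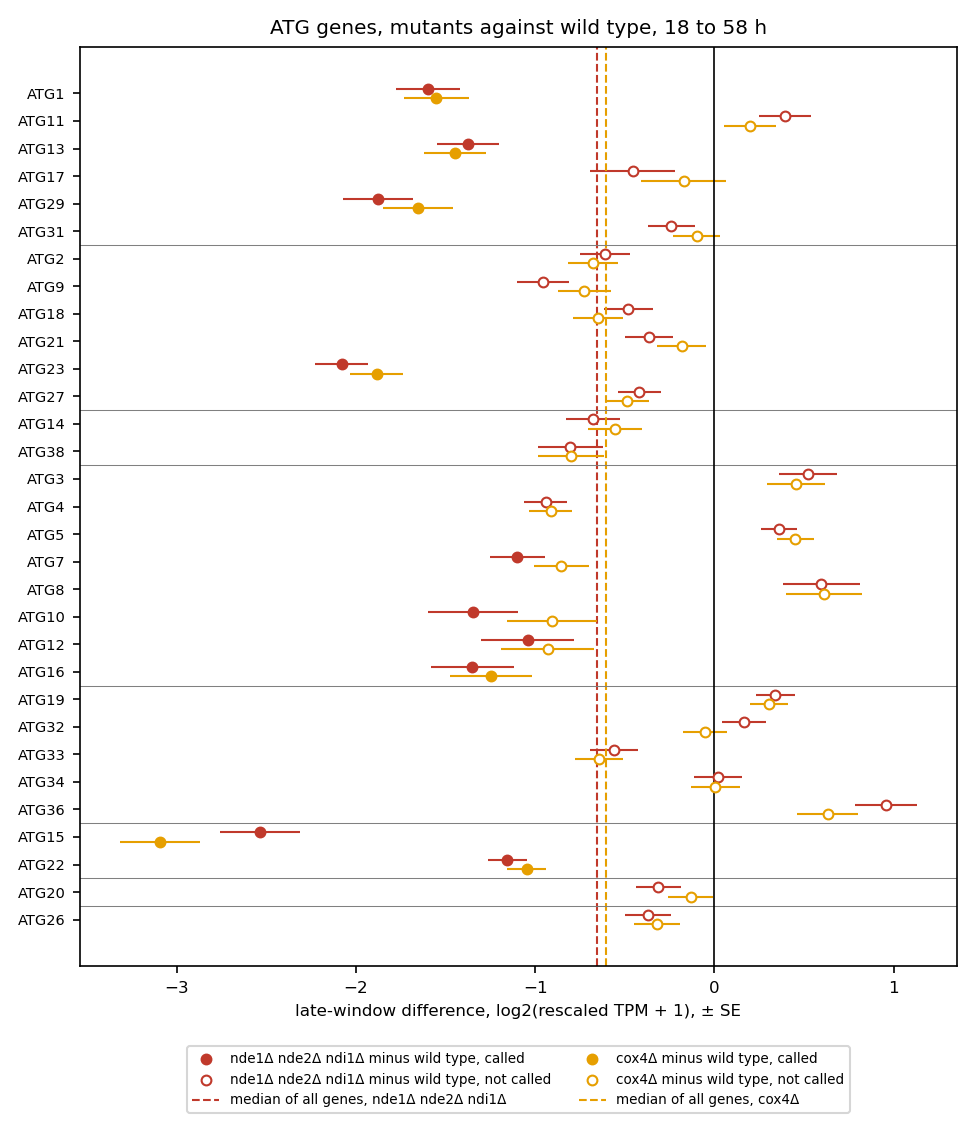
Difference of each of the 31 ATG genes between a mutant and wild type over the 9 late times, in log2(rescaled TPM + 1), as points with SE bars; filled points were called (adjusted p under 0.05 and at least 2-fold), and dashed lines are the medians of all 5721 genes, -0.65 and -0.61. ATG15, ATG23, ATG29, ATG1 and ATG13 lie to the left of the dashed lines in both mutants and ATG36, ATG8, ATG3, ATG5, ATG11 and ATG19 to the right of 0.

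Among genes of the kinase complex, ATG1 had 2.64, 5.33 and 6.69 TPM in the late NADH dehydrogenase mutant and 2.36, 4.71 and 7.90 TPM in cox4Δ, against 10.9, 17.4 and 19.7 TPM in wild type. No mutant library reached the lowest wild-type one. The log2 difference was -1.60 ± 0.18 in the NADH dehydrogenase mutant (adjusted p = 7.7e-11) and -1.55 ± 0.18 in cox4Δ (adjusted p = 2e-10), with the same sign at 9 of 9 times in each. With median-of-ratios scaling it was -0.97 and -0.98, just short of 2-fold.

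ATG13 (YPR185W, chromosome XVI 907218 to 909434) encodes the regulatory subunit through which nutrient signals reach Atg1. It had 2.5, 3.97 and 5.88 TPM in the NADH dehydrogenase mutant and 2.5, 3.62 and 4.81 TPM in cox4Δ, against 9.04, 11.6 and 14.6 TPM in wild type. The differences were -1.37 ± 0.17 (adjusted p = 1.4e-09) and -1.45 ± 0.17 (adjusted p = 4.1e-10). Unlike ATG1 it was not called in wild type over time, where late minus early was -0.25 ± 0.26 (adjusted p = 0.41). Over time within the mutants, late against early, it fell with both scalings, by 1.69 on the log2 scale in the NADH dehydrogenase mutant and by 1.59 in cox4Δ.

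ATG29 (YPL166W, chromosome XVI 237338 to 237979) encodes a small subunit of the scaffold that assembles the kinase in starved cells. Its values were 0.974, 8.29 and 11.0 TPM in the NADH dehydrogenase mutant and 1.45, 8.99 and 12.2 TPM in cox4Δ, against 21.2, 24.2 and 33.9 TPM in wild type. The groups were separate (-1.88 ± 0.20, adjusted p = 9.3e-12, and -1.65 ± 0.20, adjusted p = 3.1e-10). ATG31, the partner of ATG29 in that scaffold, did not share this, with -0.24 ± 0.13 (adjusted p = 0.094) and -0.10 ± 0.13 (adjusted p = 0.5). The test of each gene against wild type was made, and that of 1 gene against the other was not.

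ATG11 went the other way from ATG1 in sign. It had 13.6, 17.1 and 23.2 TPM in the NADH dehydrogenase mutant and 10.7, 13.2 and 26.5 TPM in cox4Δ, against 8.04, 13.9 and 16.0 TPM in wild type. The values overlapped, and the differences of 0.39 ± 0.15 (adjusted p = 0.013) and 0.20 ± 0.15 (adjusted p = 0.22) were not called. ATG17, the scaffold core, had -0.46 ± 0.24 (adjusted p = 0.075) and -0.17 ± 0.24 (adjusted p = 0.51).

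Among genes for Atg9 and membrane delivery, ATG23 (YLR431C, chromosome XII 1000342 to 1001703), whose protein is needed to carry Atg9 to the assembly site, had 1.20, 2.40 and 3.43 TPM in the NADH dehydrogenase mutant and 1.54, 2.89 and 4.19 TPM in cox4Δ, against 9.39, 13.3 and 22.6 TPM in wild type. Every mutant value lay below every wild-type value. The differences were -2.08 ± 0.15 (adjusted p = 9.8e-17) and -1.89 ± 0.15 (adjusted p = 2.2e-15). ATG9 itself had 3.93, 5.68 and 8.25 TPM and 4.80, 6.97 and 9.36 TPM in the 2 mutants in the same order, against 7.88, 12.0 and 14.4 TPM in wild type. Its ranges overlapped slightly, and -0.96 ± 0.15 (adjusted p = 1.3e-07) and -0.73 ± 0.15 (adjusted p = 2.2e-05) were under 2-fold. ATG2, ATG18, ATG21 and ATG27 lay between -0.68 and -0.18 in the 2 mutants, and the PI 3-kinase genes ATG14 and ATG38 between -0.80 and -0.55, none called.

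Of the 8 conjugation genes 4 were called lower and 0 higher in the NADH dehydrogenase mutant, against 29.4% and 2.71% of all genes. In cox4Δ 1, ATG16, was lower and 0 higher, against 26.3% and 2.46%. With median-of-ratios scaling 3 were higher and 0 lower in each. Of all genes, 9.13% were then higher and 6.72% lower in the NADH dehydrogenase mutant, and 8.01% and 6.77% in cox4Δ. ATG7, for the activating enzyme shared by both systems, was -1.10 ± 0.15 in the NADH dehydrogenase mutant (adjusted p = 1.6e-08) and -0.86 ± 0.15 in cox4Δ (adjusted p = 3e-06). ATG10, ATG12 and ATG16, of the Atg12 arm, lay between -1.35 and -0.91. ATG16 was not called at 18 to 24 h, at -0.51 ± 0.27 (adjusted p = 0.091) in the NADH dehydrogenase mutant and -0.76 ± 0.27 (adjusted p = 0.013) in cox4Δ, and was called lower at 28 to 58 h, at -2.02 ± 0.29 (adjusted p = 2e-07) and -1.63 ± 0.29 (adjusted p = 9.4e-06). This division of the late window was made after the values were seen. The median differences of all genes tested, for the mutants in the same order, were -0.72 and -0.82 at 18 to 24 h. At 28 to 58 h they were -0.60 and -0.43. ATG4, the protease that processes Atg8, stood at -0.94 and -0.91, not called. Positive differences, none of them called, were found for ATG8, given next, for ATG3, for the enzyme that hands Atg8 to lipid, at 0.52 ± 0.16 (adjusted p = 0.0034) and 0.46 ± 0.16 (adjusted p = 0.01), and for ATG5, the acceptor of Atg12, at 0.36 ± 0.10 (adjusted p = 0.0013) and 0.45 ± 0.10 (adjusted p = 9.5e-05), all under 2-fold.

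ATG8 had 291, 423 and 767 TPM in the late NADH dehydrogenase mutant and 249, 393 and 796 TPM in cox4Δ, against 183, 289 and 495 TPM in wild type. The ranges overlapped, with mutant values higher at 8 and 7 of 9 times. Differences of 0.60 ± 0.21 (adjusted p = 0.011) and 0.61 ± 0.21 (adjusted p = 0.0092) were under 2-fold. Within the late window the excess lay in the first 4 times, 18 to 24 h, where ATG8 was called higher in both mutants. There it was 1.03 ± 0.32 (adjusted p = 0.0053) and 1.20 ± 0.32 (adjusted p = 0.0013). Over the 5 times from 28 to 58 h it was 0.25 ± 0.28 (adjusted p = 0.44) and 0.14 ± 0.28 (adjusted p = 0.68). Already at 14, 15 and 16 h ATG8 had 462, 439 and 715 TPM in the NADH dehydrogenase mutant. In cox4Δ it had 244, 532 and 680 TPM then, against 157, 238 and 160 TPM in wild type. ATG9 was called lower at 18 to 24 h, at -1.30 ± 0.21 (adjusted p = 3.3e-06) and -1.18 ± 0.21 (adjusted p = 9.9e-06), and not at 28 to 58 h, at -0.68 ± 0.19 (adjusted p = 0.0021) and -0.36 ± 0.19 (adjusted p = 0.1). The median gene also moved between these parts, from -0.72 to -0.60 in the NADH dehydrogenase mutant and from -0.82 to -0.43 in cox4Δ.

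None of the 5 genes of the receptor group, which includes ATG33, was called in either mutant late with the main scaling. Of all genes, 29.4% were lower and 2.71% higher in the NADH dehydrogenase mutant, and 26.3% and 2.46% in cox4Δ. The median differences of the 5 receptor genes were 0.17 and 0.01. ATG36 had 119, 146 and 168 TPM in the NADH dehydrogenase mutant and 104, 115 and 141 TPM in cox4Δ, against 58.0, 78.2 and 89.9 TPM in wild type. It was the 1 ATG gene of 31 whose late values were all above those of wild type, in each mutant (3.83% and 2.53% of all genes), at 0.96 ± 0.17 (adjusted p = 2.8e-06) and 0.63 ± 0.17 (adjusted p = 0.0011). ATG32 overlapped wild type, with 44.3, 53.5 and 84.3 TPM in the NADH dehydrogenase mutant and 37.5, 47.2 and 73.8 TPM in cox4Δ, against 44.2, 51.9 and 61.3 TPM (0.17 ± 0.12, adjusted p = 0.21, and -0.05 ± 0.12, adjusted p = 0.7). ATG34 stood at 0.02 and 0.01, and ATG33 at -0.56 and -0.64. ATG19, for the receptor that brings aminopeptidase I to the vacuole, stood at 0.34 and 0.31.

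The 2 vacuolar genes had the lowest median difference of the role groups, at -1.84 and -2.07, mostly through ATG15. ATG22 was less negative than ATG1, ATG13, ATG23 and ATG29 in both mutants. ATG15 had 3.33, 21.7 and 36.7 TPM in the NADH dehydrogenase mutant and 3.21, 15.4 and 21.4 TPM in cox4Δ, against 77.8, 97.1 and 142 TPM in wild type. The ranges were far apart, with differences of -2.53 ± 0.22 (adjusted p = 9.4e-14) and -3.09 ± 0.22 (adjusted p = 1.9e-16), and of -1.85 and -2.46 with median-of-ratios scaling. ATG22 (YCL038C, chromosome III 54941 to 56527), for an exporter of amino acids from the vacuole, had 40.1, 52.1 and 59.8 TPM and 41.7, 52.9 and 70.0 TPM in the 2 mutants in the same order, against 89.9, 111 and 165 TPM in wild type. These too were separate (-1.16 ± 0.11 and -1.05 ± 0.11). In all, 11 ATG genes in the NADH dehydrogenase mutant and 9 in cox4Δ lay wholly below wild type late, against 32.5% and 27.1% of all genes.

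**Figure D3:**
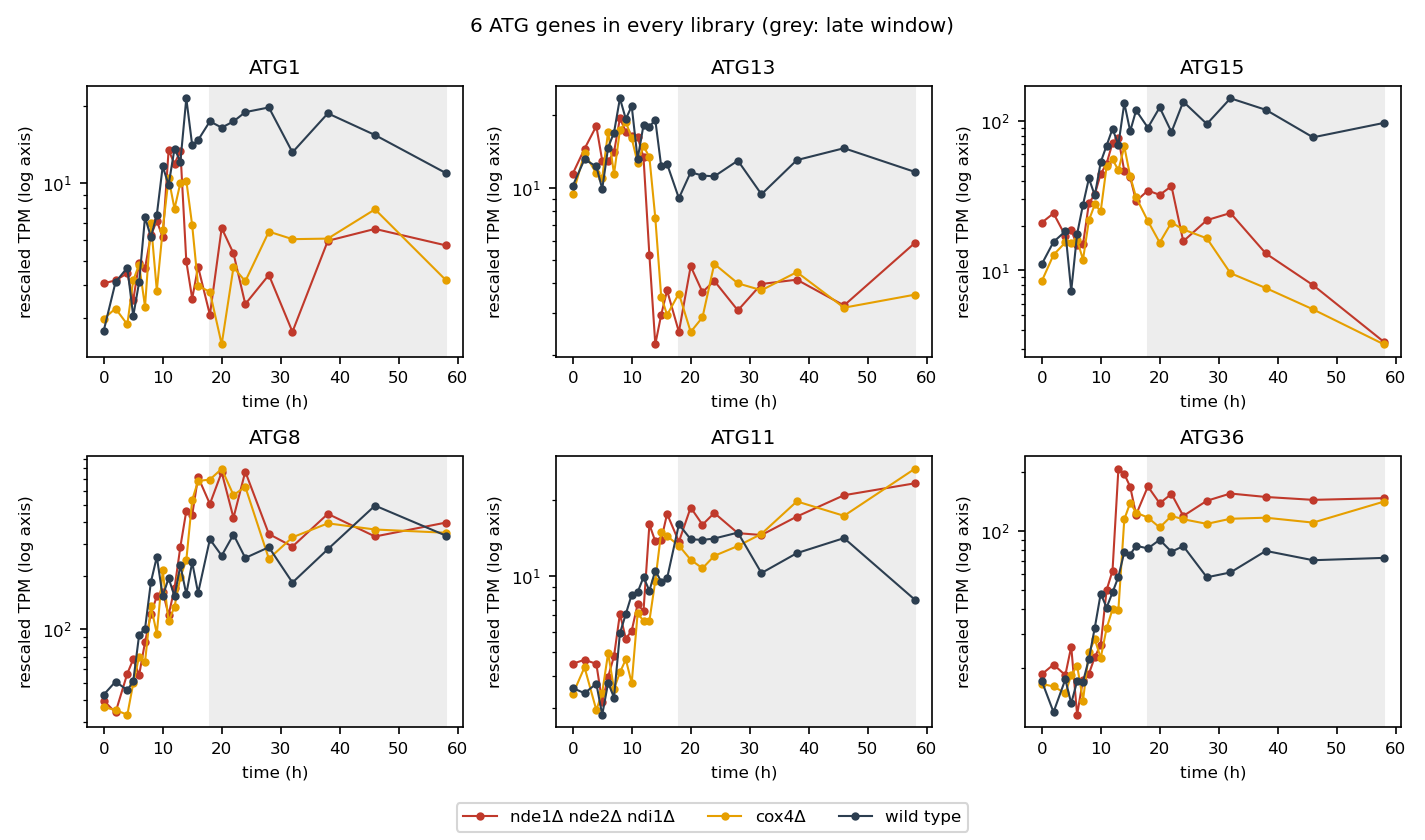
Rescaled TPM (log axis) of ATG1, ATG13, ATG15, ATG8, ATG11 and ATG36 against time in h, 1 point per library, for the NADH dehydrogenase mutant, cox4Δ and wild type; grey marks the late window. ATG1, ATG13 and ATG15 drop in the mutants between 12 and 16 h while ATG8, ATG11 and ATG36 climb, and ATG15 reaches 3.33 and 3.21 TPM at 58 h in the mutants, against 97.1 TPM in wild type.

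In the mutants ATG1, ATG13 and ATG36 changed sharply within a few hours, at times when many other genes changed too. Between 12 and 13 h in the NADH dehydrogenase mutant 22.7% of all genes fell at least 2-fold and 4.25% rose as much, and between 13 and 14 h in cox4Δ 21.3% fell and 3.72% rose. In the NADH dehydrogenase mutant ATG1 stood at 13.4, 11.9 and 13.3 TPM at 11, 12 and 13 h, and at 4.96, 3.56 and 4.73 TPM at 14, 15 and 16 h. In cox4Δ it held 10.4, 7.94, 10.0 and 10.2 TPM from 11 to 14 h, and then 6.84 and 3.99 TPM at 15 and 16 h. Up to 13 h the mutants thus rose beside wild type, which had 9.84 to 13.6 TPM from 11 to 13 h and 14.0 to 21.3 TPM from 14 to 16 h.

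ATG13 fell steeply and ATG36 rose steeply at about the same times. At 12, 13 and 14 h in the NADH dehydrogenase mutant, ATG13 had 13.4, 5.22 and 2.22 TPM and ATG36 had 62.5, 206 and 194 TPM. In cox4Δ ATG13 had 13.4, 7.48 and 3.51 TPM at 13, 14 and 15 h, and ATG36 had 39.7, 114 and 139 TPM. In the NADH dehydrogenase mutant the steep parts of both changes began between 12 and 13 h, and in cox4Δ between 13 and 14 h. ATG36 had climbed before that, from 22.8 TPM at 9 h to 62.5 TPM at 12 h in the NADH dehydrogenase mutant. In cox4Δ it had 28.0 TPM at 9 h and 39.9 TPM at 12 h. The drop of ATG1 in the NADH dehydrogenase mutant also began between 13 and 14 h. The letter of the label code changes between 13 and 14 h in every strain, and its effect was not tested.

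ATG15 fell further long after, though not steadily. In the NADH dehydrogenase mutant it had 76.5 TPM at 13 h, 29.1 TPM at 16 h and 36.7 TPM at 22 h. It then had 15.7 TPM at 24 h, 24.2 TPM at 32 h, 13.0 TPM at 38 h and 3.33 TPM at 58 h. In cox4Δ it had 67.5 TPM at 14 h, 20.9 TPM at 22 h, 7.63 TPM at 38 h and 3.21 TPM at 58 h. ATG29 did likewise at the end, with 6.07, 2.39 and 0.974 TPM at 38, 46 and 58 h in the NADH dehydrogenase mutant and 8.99, 3.71 and 1.45 TPM in cox4Δ, against 23, 30.1 and 23.4 TPM in wild type. These 2 genes were the lowest of their courses at 58 h in both mutants.

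Genes also differed in the time of their highest value. In the NADH dehydrogenase mutant 18 of 31 ATG genes had it in the middle window and 8 in the late one, and in cox4Δ 12 and 16, against 3 and 23 in wild type. Of all genes, 31.4% peaked in the middle window in the NADH dehydrogenase mutant and 40.4% in cox4Δ, against 16.3% in wild type, and 15.6% and 19.1% peaked late in the mutants, against 39.3% in wild type. The share of ATG genes with a middle peak in cox4Δ was thus close to that of all genes. Single libraries held many of the late maxima, with 5 at 58 h in the NADH dehydrogenase mutant and 9 at 58 h in cox4Δ, against 13 at 46 h in wild type (6.07%, 7.2% and 17.9% of all genes). The late maxima were also counted with that time left out of each strain, a choice made after the values were seen. Then 7, 13 and 22 ATG genes were highest late, against 12.9%, 17.2% and 34% of all genes.

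A ratio of 2 genes within a library does not depend on the scaling. ATG8 per ATG1 was 50.0, 79.3 and 227 (lowest, median and highest of 9 late times) in the NADH dehydrogenase mutant and 38.4, 82.9 and 337 in cox4Δ, against 13.3, 15.8 and 32.2 in wild type. No late mutant library came down to the highest late wild-type ratio. In the early window the same ratio had medians of 12.6 in the NADH dehydrogenase mutant and 12.3 in cox4Δ, against 16.1 in wild type, with overlapping ranges. ATG36 per ATG15 was 4.20, 6.54 and 43.9 in the late NADH dehydrogenase mutant and 5.44, 6.76 and 43.8 in cox4Δ, against 0.433, 0.729 and 0.926 in wild type, again without overlap. Both pairs were picked after the values were seen and are given with no test.

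**Figure D4:**
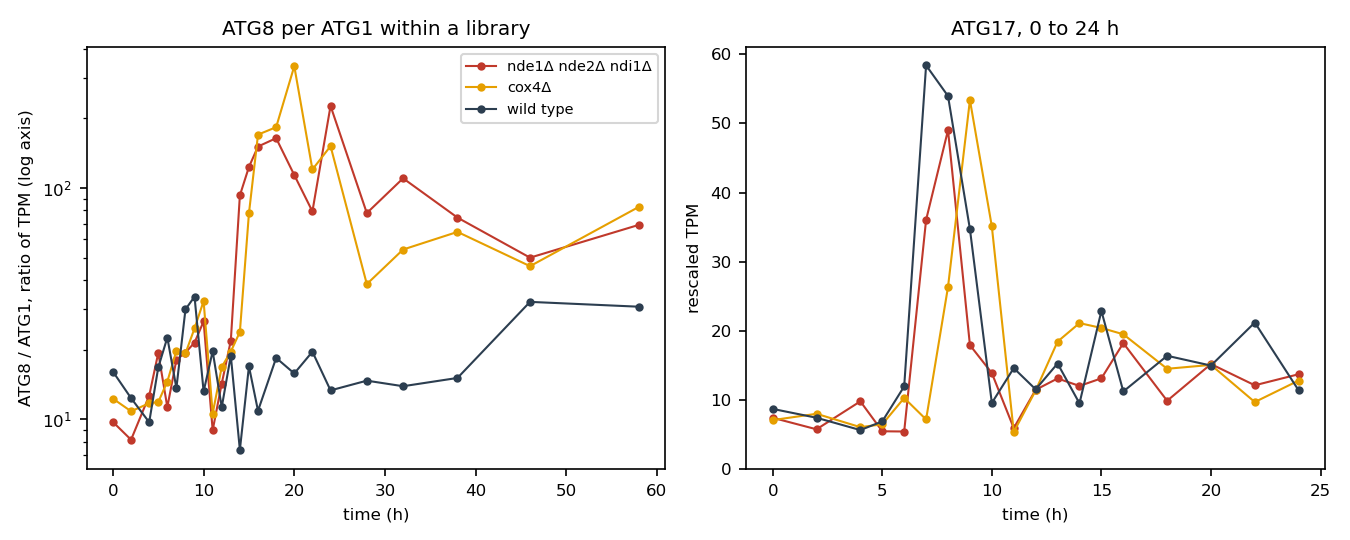
Left, ratio of ATG8 to ATG1 in TPM within each library (log axis) against time in h; right, ATG17 in rescaled TPM from 0 to 24 h; 1 point per library for the NADH dehydrogenase mutant, cox4Δ and wild type. The ratio separates the mutants from wild type from 15 h on, with late medians of 79.3 and 82.9, against 15.8, and ATG17 shows a brief peak of 49.0, 53.4 and 58.4 TPM in the 3 strains between 7 and 9 h.

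Fewer ATG genes were called between strains before the late window, although single times from 13 h on differed as given above. The middle window sets the strains at unlike stages beside each other. The largest share of all genes falling at least 2-fold between neighbouring times came between 9 and 10 h in wild type (7.08%). It came between 12 and 13 h in the NADH dehydrogenase mutant (22.7%) and between 13 and 14 h in cox4Δ (21.3%). Over the whole middle window 1 ATG gene, ATG13, was called lower in the NADH dehydrogenase mutant (-1.03 ± 0.18, adjusted p = 4.4e-05, against 3.67% of all genes), and 0 were called higher (0.787%). In cox4Δ 0 were called higher (0.507%) and 0 lower (2.32%). By limma at an unadjusted p under 0.05, 2 were higher and 11 lower in the NADH dehydrogenase mutant, where 58.8% of all genes reached that level, and 0 were higher and 13 lower in cox4Δ, against 44% of all genes. After adjustment 9 and 8 of them kept a p under 0.05. In the NADH dehydrogenase mutant and cox4Δ in that order, ATG1 stood at -0.70 and -0.75, ATG8 at 0.47 and 0.21, ATG9 at -0.36 and -0.38, ATG11 at 0.15 and -0.20 and ATG32 at -0.07 and -0.41. ATG13 was not called with median-of-ratios scaling, nor when any one of 13, 14, 15 or 16 h was left out. In the early window 0 of 31 were called in the NADH dehydrogenase mutant (0.192% of all genes were called higher and 0.0524% lower) and 0 in cox4Δ (0.472% and 0.297%). By limma, 0 of 31 reached an unadjusted p under 0.05 in the NADH dehydrogenase mutant, against 5.72% of all genes, and 5 in cox4Δ, against 14.3% of all genes. The early differences lay between -0.28 and 0.29 in the NADH dehydrogenase mutant and between -0.60 and 0.49 in cox4Δ.

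The mutants also differed little from each other. Between cox4Δ and the NADH dehydrogenase mutant late, 0 of 31 genes were called (0.21% of all genes higher and 0.0874% lower). One, ATG15, had an unadjusted p under 0.05, against 12.2% of all genes, at -0.56 ± 0.22 (adjusted p = 0.24). The 31 differences lay between -0.56 and 0.44, and a p that misses the threshold does not show that the mutants were alike.

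Within the mutants some ATG genes still rose with age. From the early to the late window, 8 of 31 were called higher and 2 lower in the NADH dehydrogenase mutant (12.2% and 40% of all genes), and 9 higher and 2 lower in cox4Δ (13.7% and 34.3%). With median-of-ratios scaling the counts were 12 and 1 (22.4% and 20.4%), and 15 and 1 (22% and 20.1%). The largest were ATG36 at 2.92 ± 0.29 and ATG8 at 2.87 ± 0.33 in the NADH dehydrogenase mutant, and ATG8 at 3.05 ± 0.33 and ATG36 at 2.65 ± 0.29 in cox4Δ, with ATG33, ATG34 and ATG3 next in the NADH dehydrogenase mutant (2.14, 2.08 and 1.86) and in cox4Δ (2.35, 2.29 and 1.80). ATG11 (1.71 and 1.73) and ATG32 (1.58 and 1.67) were called higher in the NADH dehydrogenase mutant and cox4Δ, and ATG9 (0.27 and 0.74) was not. ATG13 and ATG23 were the 2 genes called lower in each mutant. For ATG1 late minus early was 0.04 ± 0.21 in the NADH dehydrogenase mutant and 0.26 ± 0.21 in cox4Δ, not called. For ATG15 the difference of window means was -0.15 ± 0.32 and -0.28 ± 0.32, also not called, but its late values ran down to 3.33 TPM and 3.21 TPM at 58 h, below the lowest early values of 14.7 TPM in the NADH dehydrogenase mutant and 8.48 TPM in cox4Δ.

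The difference between strains in this change with age was tested as well. The mutant change minus the wild-type change, on the log2 scale, was called negative in 12 of 31 ATG genes in the NADH dehydrogenase mutant and positive in 0, against 33.5% and 2.8% of all genes. In cox4Δ it was negative in 9 and positive in 0, against 26.1% and 3.51%. A negative value covers genes such as ATG1, called higher over time in wild type alone, and genes such as ATG13, called lower over time in the mutants. At an unadjusted p under 0.05 by limma, 4 were positive and 19 negative in the NADH dehydrogenase mutant, against 70.5% of all genes in either direction, and 4 positive and 14 negative in cox4Δ, against 64.4%. After median-of-ratios scaling 5 were positive and 3 negative in the NADH dehydrogenase mutant (9.9% and 7.66% of all genes), and 4 positive and 3 negative in cox4Δ (9.55% and 7.68%). The 3 negative ones were ATG15, ATG23 and ATG29 in both.

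ATG17 (YLR423C, chromosome XII 971917 to 973170) had a course of its own. It had 5.44 TPM at 6 h, 36.1 and 49.0 TPM at 7 and 8 h, and 17.9 TPM at 9 h in the NADH dehydrogenase mutant. In cox4Δ the peak came later, with 7.18 TPM at 7 h, 26.3, 53.4 and 35.1 TPM at 8, 9 and 10 h, and 5.37 TPM at 11 h. In wild type it had 12.0 TPM at 6 h, 58.4, 54.0 and 34.7 TPM at 7, 8 and 9 h, and 9.57 TPM at 10 h. The peak was thus present in each strain in 2 or more consecutive libraries, and no other time in any strain exceeded 30.7 TPM.

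By Pearson correlation of log2 levels over the 72 libraries, run after the values were seen and given as a description because the libraries share strains and times, the genes most like ATG17 were MSP1 (r = 0.81), which encodes an extractor of misplaced mitochondrial membrane proteins, DER1 (0.69), of the degradation of endoplasmic reticulum proteins, YBR200W-A (0.68), YET1 (0.65), ULI1 (0.62) and KAR2 (0.62), the chaperone of the endoplasmic reticulum lumen. The upstream neighbour SPP382, which overlaps the promoter window of ATG17, ranked at 155 with r = 0.42 over all libraries, and had r = 0.31 within the NADH dehydrogenase mutant, 0.17 within cox4Δ and 0.74 within wild type. Its highest values came at 8, 9 and 8 h in the NADH dehydrogenase mutant, cox4Δ and wild type, at 8.79, 8.96 and 13.6 TPM, beside 8, 9 and 7 h for ATG17. The strand setting of the counting is not given in the sources used here, so reads that the neighbours may share cannot be told apart in the ATG17 values.

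ATG genes that the table lists under other names were described beside the 31. These were VPS30 (ATG6), SNX4 (ATG24), YLR312C (ATG39), YOR152C (ATG40), ICY2 (ATG41), YBR139W (ATG42), YIL156W-B (ATG44) and YIL024C (ATG45). Late, 3 of 8 were called lower and 0 higher in each mutant, against 29.4% of all genes lower in the NADH dehydrogenase mutant and 26.3% in cox4Δ. With median-of-ratios scaling 1 was lower in the NADH dehydrogenase mutant and 2 in cox4Δ (6.72% and 6.77% of all genes), with 0 higher (9.13% and 8.01%). ATG39, the receptor for the nuclear envelope, had 46.0, 50.6 and 74.9 TPM in the late NADH dehydrogenase mutant and 32.3, 51 and 59.6 TPM in cox4Δ, against 117, 152 and 195 TPM in late wild type. The groups were separate (-1.51 ± 0.15, adjusted p = 3.6e-12, and -1.69 ± 0.15, adjusted p = 1.6e-13; -0.81 and -1.04 with median-of-ratios scaling). In the middle window ATG39 stood at -0.49 ± 0.16 in the NADH dehydrogenase mutant (adjusted p = 0.011, not called) and at -1.0 ± 0.16 in cox4Δ (adjusted p = 8.8e-06, called lower, but at -0.73 and not called with median-of-ratios scaling), and early at -0.21 and -0.69, neither called. From early to late it changed by 2.83 ± 0.32 in the NADH dehydrogenase mutant, by 3.12 ± 0.32 in cox4Δ and by 4.12 ± 0.32 in wild type (adjusted p = 6.8e-18), where no gene of the 31 had a larger difference.

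Partners, hydrolases and regulators of the pathway were counted from lists, and their late counts stand beside 29.4% of all genes lower and 2.71% higher in the NADH dehydrogenase mutant and 26.3% and 2.46% in cox4Δ. Of 10 partner genes, such as those for the lipid kinase complex and vacuole fusion, 0 were called late in either mutant. Of 10 vacuolar hydrolase genes 1 was higher and 2 lower in the NADH dehydrogenase mutant, and 0 higher and 2 lower in cox4Δ. PRB1, for proteinase B, stood at -1.22 and -1.33 and ATH1, for acid trehalase, at -1.28 and -1.5, while APE3, for aminopeptidase Y, stood at 1.0 in the NADH dehydrogenase mutant. With median-of-ratios scaling the count was 3 higher and 0 lower in each mutant, against 9.13% and 6.72% of all genes in the NADH dehydrogenase mutant and 8.01% and 6.77% in cox4Δ. The 3 were APE3, CPS1 and PRC1. In wild type late against early 6 of these 10 were higher and 1 lower (18.4% and 14.7% of all genes). Of 12 regulators 3 were lower in each mutant, a share near that of all genes. They were UME6 (-1.54 and -1.5), whose product represses ATG8, RPH1 (-1.29 and -1.34), whose product represses several ATG genes, and GAT1 (-1.07 and -1.21), a GATA activator. None of these 3, nor PRB1 or ATH1, was called with median-of-ratios scaling. Of 12 genes of TOR, Snf1 and protein kinase A signalling 1 was lower, TPK3, a catalytic subunit of protein kinase A (-1.73 and -1.49). With median-of-ratios scaling 3 were higher and 1, TPK3, was lower in the NADH dehydrogenase mutant (9.13% and 6.72% of all genes), and 1 was higher and 0 lower in cox4Δ (8.01% and 6.77%).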

How the data were processed

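RNA was extracted with hot acidic phenol and depleted of ribosomal RNA before stranded library preparation, per the labels' protocols. The authors deposited TPM per gene. Salmon 0.9.1, bcl2fastq 2.20.0.422 and the build sacCer3 are named, per the submitters' processing notes. Its strand setting and gene models are not stated there. From the deposited TPM, each library was rescaled to a common total without the 23 mitochondrial and plasmid entries. Genes with a mean of at least 1 were tested (5721 kept, 82 left out). limma 3.58.1 in R 4.3.3 (trended, robust, 2-sided) was run on log2(rescaled TPM + 1), which understates changes of low genes. Strains were compared with the time point as a block, because they share sampling times (deviations of 2 strains at the same time had a median correlation of 0.50, 0.20 and 0.33 in the 3 pairs of strains). Changes over time used no block. Adjusted p are Benjamini-Hochberg over all genes. With 1 library per strain and time, the times of a window stand in for replicates, and p measures the spread between times of these cultures. By rule up to 5 of the highest and 5 of the lowest called members are named per comparison, with ATG1, ATG8, ATG9, ATG11, ATG32 and ATG39 whatever their values. For the early window and for the mutants against each other, where no member was called, the range over the 31 is given instead. Alternatives were the pseudocount, the filter, the scaling, the block and leaving out times or parts of the late window. The genes and lists were chosen with earlier results of these data known.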

Additional observations from a re-analysis of the deposited data

Results flagged for a closer look

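ATG genes were flagged when their late minus early difference was not the same in a mutant as in wild type, by a test of that interaction. Of all genes, 33.5% were called negative in the NADH dehydrogenase mutant and 26.1% in cox4Δ, so the ATG counts are near those shares. The median ATG value was -0.61 in the NADH dehydrogenase mutant and -0.37 in cox4Δ, against -0.72 and -0.56 over all genes. For 12 genes in the NADH dehydrogenase mutant, the mutant change minus the wild-type change on the log2 scale was -2.68 for ATG15, -2.06 for ATG23, -1.90 for ATG29, -1.63 for ATG1, -1.44 for ATG13, -1.23 for ATG10, -1.21 for ATG22, -1.18 for ATG16, -1.09 for ATG9, -1.08 for ATG12, -1.06 for ATG7 and -1.04 for ATG38. In cox4Δ it was, for 9 genes, -2.80 for ATG15, -2.03 for ATG23, -1.58 for ATG29, -1.41 for ATG1, -1.37 for ATG10, -1.35 for ATG13, -1.32 for ATG12, -1.29 for ATG38 and -1.05 for ATG16. With median-of-ratios scaling ATG15, ATG23 and ATG29 were still called in this direction in both mutants, and ATG3, ATG5, ATG8 and ATG36 in the other, with ATG19 added in the NADH dehydrogenase mutant. Of the 18 called differences between a mutant and wild type, none had a single time far from the other times of its window by Dixon's criterion.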

How the results depend on the processing

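Counts below are of the 31 ATG genes. Shares of all genes called are given above for the main fit and for most counts with median-of-ratios scaling. They are not given for the other settings, so those counts cannot be set against all genes. Scaling mattered most. With median-of-ratios scaling, late against wild type, 6 were higher and 3 lower in the NADH dehydrogenase mutant and 4 higher and 3 lower in cox4Δ, in place of 0 and 10, and 0 and 7. In the middle window 0 were lower in the NADH dehydrogenase mutant. The change from early to late then differed from wild type in 5 upward and 3 downward in the NADH dehydrogenase mutant and in 4 and 3 in cox4Δ, and 1 gene fell over time in each mutant while 15 rose in cox4Δ. ATG32 in cox4Δ late changed sign, to 0.59 with that scaling, to 0.028 without 20 h and to 0.21 at 28 to 58 h. At 18 to 24 h ATG32 in the NADH dehydrogenase mutant was -0.094 and ATG11 in cox4Δ -0.27. The cause was not tested.

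With a pseudocount of 5, which shrinks low genes, 6 were lower late in the NADH dehydrogenase mutant and 4 in cox4Δ, 0 were lower in the middle window of the NADH dehydrogenase mutant, 6 had a more negative change over time than wild type in the NADH dehydrogenase mutant, 7 rose by the middle window in wild type, and 1 fell over time in each mutant. With a pseudocount of 0.1, 2 were lower in the middle window of the NADH dehydrogenase mutant and 1 had a more positive change over time than wild type in cox4Δ. At 18 to 24 h, a split chosen after seeing the data, 1 was higher in each mutant, 11 were lower in cox4Δ, and 1 had a more positive change over time than wild type in each mutant. At 28 to 58 h 1 was higher in the NADH dehydrogenase mutant. The median late difference of all genes in cox4Δ was -0.82 at 18 to 24 h and -0.43 at 28 to 58 h. In the NADH dehydrogenase mutant it was -0.72 and -0.60. The fit without the time point as a replicate block gave the same late counts, 10 and 7 lower, and changed no other count. Without a filter on low values no count moved by over 1.5 times.

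Leaving out each time in turn gave 9 to 11 genes lower late in the NADH dehydrogenase mutant and 6 to 8 in cox4Δ, with 0 to 1 higher in the NADH dehydrogenase mutant. That gene was ATG36, called without 20 h or without 24 h. Middle-window calls in the NADH dehydrogenase mutant ranged over 0 to 2. Genes with a more negative change over time than in wild type numbered 10 to 13 in the NADH dehydrogenase mutant and 8 to 9 in cox4Δ, and 0 to 1, which was ATG8, had a more positive change in cox4Δ. Wild-type increases ranged over 15 to 17 late and 11 to 12 in the middle window, and increases in cox4Δ over 8 to 10 with 2 to 3 decreases.

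Depth is unknown, so low values such as those of ATG1, ATG2, ATG9 and ATG23 carry no counting interval, and their fold changes are understated by the pseudocount. One culture per strain was sampled as far as the labels say, and an effect tied to the letter code of the labels was not tested.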
